A study of Drosophila melanogaster with 3 samples.

Results

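The 30 genes described here encode the contractile machinery of muscle, among the 17738 genes of the deposited single-cell tables of the developing Drosophila midgut. They were taken by name: the filaments and their regulators, the giant elastic and scaffold proteins, the Z-disc and LIM-domain proteins, the calcium pump SERCA and the muscle transcription factor Mef2. By what is known of their roles, 21 were grouped as muscle-restricted and the other 9 (Tm1, Msp300, Zasp52, Actn, Chd64, tmod, Mef2, SERCA and CAP) as broadly expressed, and each name matched a single row. The genes lie on arm 2R (11 genes), arm 3R (8), arm 3L (5), the X (3), arm 2L (2) and chromosome 4 (1 gene, bt).

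In a sarcomere, thick filaments of myosin slide along thin filaments of actin, and calcium released from internal stores starts the movement through troponin and tropomyosin on the thin filament. Actin filaments are anchored at the Z-disc, and titin-like proteins tie the thick filaments to it. The midgut epithelium is wrapped by circular and longitudinal visceral muscles, which are striated in insects and move food along the gut, while several actin regulators of muscle also serve the cell cortex of epithelial cells.

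The study sampled 3 stages of intestinal development with 1 library each: early pupa (labelled red-eye pupa), immature adult (labelled day 1 adult, called pharate in the methods' cell counts) and mature adult (labelled day 7 to 8 adult). All 3 libraries were labelled female, with the genotype CantonS in a per01 background (the methods write CantonS), and were dissected from ZT 0, the start of the light phase. Per the methods, foregut and hindgut were removed and the tissue was dissociated with elastase before droplet 3′-end sequencing. With 1 library a stage, developmental stage cannot be told apart from dissection, dissociation or sequencing, no test between stages exists, and every interval below is a 95% interval for counting error only.

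A unique molecular identifier (UMI) marks 1 captured transcript. The study's filter (mitochondrial share under 25%, between 200 and 4000 genes, between 1000 and 100000 UMIs) left 2013, 1197 and 1980 cells of 3816, 2625 and 6835 barcodes in early pupa, immature adult and mature adult. Kept cells held 27026674, 21629263 and 47585248 UMIs, with medians of 9343, 14661 and 13474 a cell, and the libraries shared 2 to 9 barcodes a pair. Levels are given as counts per 1000000 UMIs of the kept cells (CPM). As 3′ tags do not scale with gene length, levels are compared within a gene, and between genes only as shares of UMIs.

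The muscle-restricted genes were far lower in both adult libraries than in early pupa, whereas the sum of the broadly expressed genes differed by less. Summed over the 21 genes, the level was 8456 CPM (8421 to 8490) in early pupa, 658 CPM (647 to 669) in immature adult and 44.7 CPM (42.8 to 46.7) in mature adult. The immature adult sum was thus 12.8-fold lower than in early pupa, and the mature adult sum 189-fold lower. With each cell weighed equally the log2 differences were smaller, at -1.78 and -4.71 instead of -3.68 and -7.56, and with no upper limits they were -4.96 and -4.34. The 9 broadly expressed genes summed to 2402, 2625 and 1321 CPM in the same order, a log2 difference of 0.13 (0.11 to 0.14) for immature adult over early pupa and of -0.86 (-0.88 to -0.85) for mature adult over early pupa. The upper limits of the filter decide the direction of the muscle-restricted sum between the adults. With barcodes over 4000 genes or 100000 UMIs included, the muscle-restricted sum was higher in mature than in immature adult by 0.62 on the log2 scale, where kept cells gave -3.88.

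A difference of at least 2-fold was counted among genes with at least 100 UMIs over both libraries. For immature adult over early pupa, 23 of the 30 members were lower and 1 was higher, against 16.2% lower and 12.9% higher of 8014 genes. For mature adult over early pupa, 27 members were lower and 0 higher, against 46.6% lower and 7.73% higher of 8125 genes. Between mature and immature adult, 26 of 28 tested members were lower and 0 higher, against 50.8% lower and 5.71% higher of 7553 genes, but with no upper limits on genes or UMIs 1 was lower and 7 were higher. All 21 muscle-restricted genes were among those lower in each adult library than in early pupa, with median log2 differences of -3.50 in immature adult and -7.18 in mature adult. Of the 9 broadly expressed genes, 2 were lower and 1 higher in immature adult than in early pupa. In mature adult 6 of the 9 were lower than in early pupa and 0 higher, with a median log2 difference of -1.54. The median of all tested genes was 0.07 for immature adult over early pupa but -0.93 for mature adult over early pupa and -1.01 for mature over immature adult. The typical tested gene was thus also lower in CPM in mature adult.

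**Figure D1:**
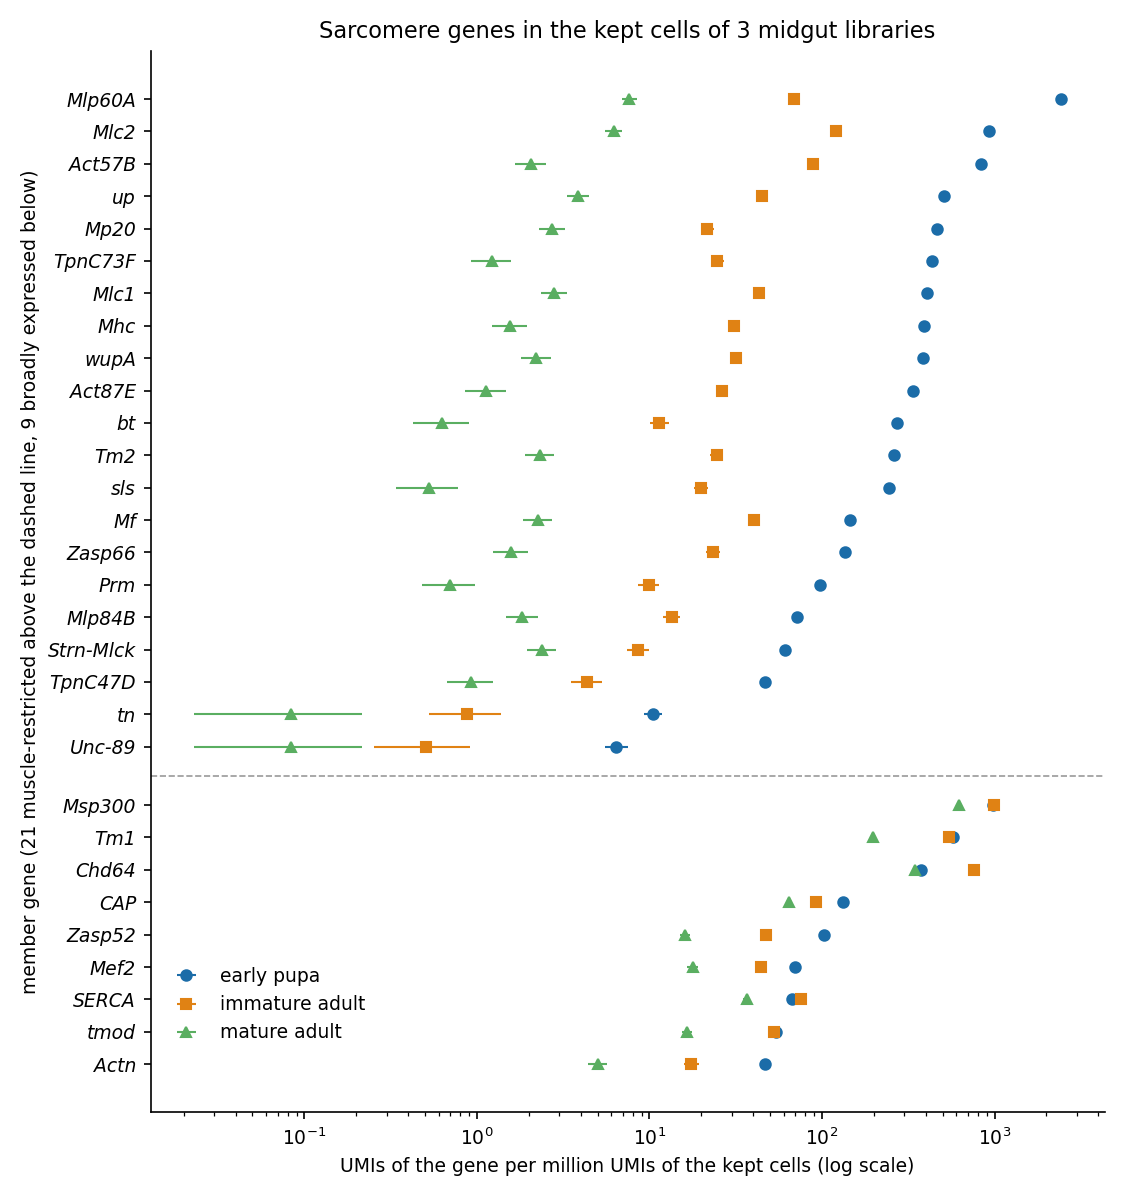
Level of each of the 30 members (CPM over kept cells, log axis) in early pupa, immature adult and mature adult, with exact 95% Poisson intervals, grouped into muscle-restricted and broadly expressed genes. The muscle-restricted genes step down at each later library, their sums being 8456, 658 and 44.7 CPM. Tm1, Msp300, Chd64 and SERCA differ by less, at most 2.92-fold (Tm1, mature adult against early pupa).

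The thick filament genes were all lower in the adults. Mhc, the muscle myosin heavy chain (chr2L:16766566-16788766, release 6 coordinates), was at 390 CPM in early pupa, 31.0 CPM in immature adult and 1.56 CPM in mature adult. Its essential light chain Mlc1 was at 405, 43.0 and 2.79 CPM, and the regulatory light chain Mlc2 (chr3R:30171438-30174551) at 928, 121 and 6.22 CPM. The light chains were lower by less than the heavy chain in immature adult, at log2 differences over early pupa of -3.65 for Mhc, -3.23 for Mlc1 and -2.94 for Mlc2. Prm, the paramyosin of the filament core, was at 97.0, 9.89 and 0.693 CPM. Mf, myofilin, another core protein, was at 145, 40.2 and 2.25 CPM. Mf had the smallest difference of the 21 genes between immature adult and early pupa (-1.86, interval -1.96 to -1.75), and its sign turned to 0.18 when each cell was weighed equally rather than by its UMIs.

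On the thin filament, Act57B and Act87E, actins used in muscle, were at 835 and 336 CPM in early pupa, 88.3 and 26.3 CPM in immature adult and 2.06 and 1.13 CPM in mature adult. The coding sequences of actin genes are nearly identical, so reads that do not reach their 3′ ends could be split between them. In kept cells, Act57B had the largest difference of the 21 genes between mature and immature adult (-5.42, interval -5.73 to -5.13). Tm2, a tropomyosin that covers myosin sites on actin, was at 260, 24.5 and 2.31 CPM. The troponin T gene up (chrX:13593474-13602578) was at 509, 44.9 and 3.87 CPM, and the troponin I gene wupA at 385, 31.8 and 2.21 CPM. The troponin C genes, which bind the calcium, were lower as well. TpnC73F was at 433, 24.7 and 1.22 CPM and TpnC47D at 46.9, 4.35 and 0.925 CPM. Both were thus lower at each later stage, with TpnC73F showing the greater difference in either adult library. Mp20, a calponin-like protein of muscle, was at 461, 21.7 and 2.73 CPM.

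Among the giant proteins and kinases, sls (chr3L:2039681-2115611) encodes the titin-like proteins of the Z-disc and I-band and bt (chr4:724400-776474) encodes projectin. The level of sls was 245 CPM in early pupa, 19.9 CPM in immature adult and 0.525 CPM in mature adult, and that of bt was 271, 11.4 and 0.630 CPM. With sls at a log2 difference of -8.87 (-9.50 to -8.30) and bt at -8.75 (-9.31 to -8.23), these were the largest differences of any member between mature adult and early pupa in kept cells. This ranking depends on the upper limits of the filter. Mature adult barcodes over a limit held 3017 sls and 2241 bt UMIs, against 25 and 30 in kept cells. Strn-Mlck, a kinase with titin-like repeats, was at 60.98, 8.55 and 2.37 CPM. Its difference of -4.68 between mature adult and early pupa was the smallest of the 21 genes in kept cells. Unc-89, the obscurin of the M-line, rested on 174, 11 and 4 UMIs, and tn, the TRIM-NHL protein thin that keeps sarcomeres stable, on 284, 19 and 4 UMIs. Neither of these genes reached 100 UMIs over both adult libraries, and they entered no count between them.

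Of the Z-disc and LIM-domain proteins, Mlp60A, a muscle LIM protein, had the largest difference between immature adult and early pupa. It was at 2421 CPM in early pupa, 68.7 CPM in immature adult and 7.65 CPM in mature adult, and made up more than any other gene of the muscle-restricted sum in early pupa. Its relative Mlp84B, also a LIM protein of the Z-disc, was at 71.6, 13.5 and 1.83 CPM. Zasp66, a PDZ protein of the Z-disc, was at 137, 23.4 and 1.58 CPM. Without Mlp60A the muscle-restricted sum was 6035, 589 and 37.1 CPM, at log2 differences of -3.36 for immature adult over early pupa and -7.35 for mature adult over early pupa.

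The broadly expressed members behaved differently from one another. Chd64, a calponin-like actin-binding protein, was the only member of the 30 at least 2-fold higher in immature adult than in early pupa, at 374, 764 and 346 CPM over the 3 stages. Its log2 difference of 1.03 had an interval of 0.99 to 1.06, which reaches below 2-fold. Msp300, a giant nesprin that links nuclei and organelles to actin (chr2L:5100877-5207002), was at 979, 987 and 622 CPM, and Tm1, a tropomyosin with muscle and cytoskeletal isoforms, at 576, 545 and 197 CPM. SERCA, the pump that returns calcium to the endoplasmic reticulum, was at 67.2, 75.4 and 36.6 CPM and tmod, which caps actin pointed ends, at 53.9, 52.6 and 16.5 CPM. These 4 genes differed by at most 0.16 on the log2 scale in either direction between immature adult and early pupa. CAP, a vinexin-like adaptor at muscle attachments, was at 133, 92.4 and 64.4 CPM, and Mef2, which activates muscle genes, at 69.7, 44.1 and 17.8 CPM. Only Zasp52, the founding Zasp protein, and Actn, the actin cross-linker alpha-actinin, were at least 2-fold lower in immature adult: Zasp52 was at 102, 47.4 and 16.1 CPM and Actn at 46.7, 17.5 and 5.02 CPM. Exons of Actn and CAP overlap those of other genes on the same strand (usp and CG12910), as those of Act57B and Msp300 do with small RNAs, and sls, Act87E, Strn-Mlck, Tm1, Actn and SERCA overlap antisense genes, so that their counts are less certain where the counting rules are not stated.

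The muscle-restricted UMIs sat in few cells. In early pupa, 82 of 2013 kept cells (4.07%, exact binomial interval 3.25 to 5.03) had more than 5% of their UMIs from the 21 genes, in immature adult 15 of 1197 (1.25%, 0.703 to 2.06) and in mature adult 5 of 1980 (0.253%, 0.0820 to 0.588). These cells held 78.9%, 93.1% and 76.5% of all muscle-restricted UMIs of their libraries. The highest share in a cell was 28.7%, 30.5% and 17.0%, and 1 cell alone held 5.95%, 31.0% and 44.6% of the library's muscle-restricted UMIs, so the mature adult values rest largely on 1 cell. In the 2 adult libraries the 5% line fell in an empty range, with 0 cells between 2 and 5%, while early pupa had 41 cells there. The cells over 5% were shallow, with median depths of 6260, 2475 and 1471 UMIs.

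Outside these cells the 21 genes were low but not at 0. The remaining kept cells had 1857, 45.4 and 10.5 CPM of the 21 genes, and 185 (9.19%), 876 (73.2%) and 1638 (82.7%) of all kept cells had no UMI of any of them. After each cell was thinned to 2000 UMIs, which left out 304, 149 and 358 shallower cells, 59.2% (56.8 to 61.5), 8.78% (7.14 to 10.7) and 3.88% (3.00 to 4.94) of cells had such a UMI. The early pupa share thus exceeded both adult shares at a matched depth. Enterocyte-like (EC-like) cells, absorptive epithelium in which these genes are not known to act, carried 126, 18.4 and 6.32 CPM, with all 21 genes counted in early pupa.

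**Figure D2:**
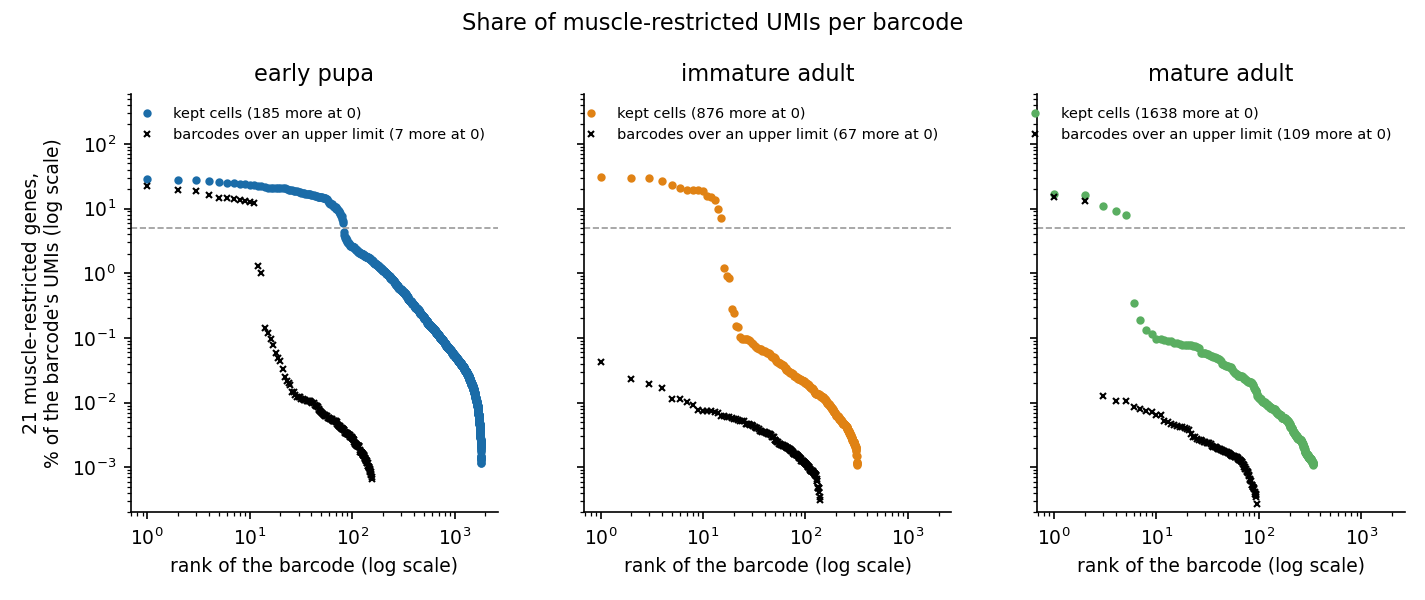
Share of a barcode's UMIs that came from the 21 muscle-restricted genes (percent, log axis), against the barcode's rank (log axis), for kept cells (dots) and barcodes over an upper limit of the filter (crosses) in early pupa, immature adult and mature adult, with the barcodes at 0 (185, 876 and 1638 kept cells) in the legend. In the adult libraries the kept cells above the dashed 5% line stand apart by an empty range, while in early pupa 41 cells lie between 2 and 5%.

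The upper limits of the filter removed muscle-rich barcodes too. Above 4000 genes or 100000 UMIs, 11 early pupa barcodes, 0 of 206 immature adult barcodes and 2 mature adult barcodes had over 5% muscle-restricted UMIs. The 2 mature adult barcodes had 93667 and 136392 UMIs, 5173 and 5779 genes and shares of 14.9% and 13.0%. Together they held 31705 muscle-restricted UMIs, against 2128 in all 1980 kept cells of that library. Whether such barcodes hold 1 cell or several was not tested.

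Clustering without the 30 genes gathered the muscle-rich cells in cluster 8, which had 128 cells in early pupa, 27 in immature adult and 28 in mature adult. Its leading genes were Mlc2, Act57B, CG4115, Mp20, TpnC73F and up, and 11 of 18 visceral muscle markers that are not members were raised in it, but its cells had 0.281 of the median depth of their own libraries and none of those markers among its 10 leading genes, so it was left without a cell type name. It held 78.9%, 93.3% and 76.8% of the muscle-restricted UMIs, in 6.36%, 2.26% and 1.41% of kept cells. In early pupa, 17 of the 21 genes had 93.4% to 99.1% of their UMIs in cluster 8, Mhc, Mlc2 and tn among them, and Unc-89 had 90.8%. The exceptions were sls with 71.6%, Strn-Mlck with 36.7% and Mlp60A with 35.6%.

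Cluster 8 was mixed. Its 81, 15 and 5 cells over 5% had 174565, 215679 and 141601 CPM of the 21 genes, and the 18 visceral muscle markers summed to 13409, 16093 and 7224 CPM in them. Tracheal markers were at 5.81 CPM in those early pupa cells and at 0 of 5 markers detected in the adult ones. The other 47, 12 and 23 cells of the cluster had 357, 338 and 21.01 CPM of the 21 genes. In those cells tracheal markers summed to 20279 CPM in early pupa with 5 of 5 detected, and hemocyte markers to 6687 CPM in immature adult with 6 of 6 detected. The cluster as a whole therefore held cells with markers of trachea and blood beside the muscle-rich ones, and the muscle values per cell are given for the cells over 5%.

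The make-up of the muscle RNA differed between the stages for some genes. The barcodes with over 5% muscle-restricted UMIs, including those over an upper limit, numbered 93 in early pupa, 15 in immature adult and 7 in mature adult, and as they were picked by this share, their values are a description. Mf stood at a median of 2845 CPM (lowest 0, highest 12346) in early pupa, 12475 CPM (5184 to 25721) in immature adult and 8182 CPM (2964 to 17745) in mature adult. Each adult barcode held Mf, and the early pupa median lay below the lowest adult value. Zasp66 had medians of 2787, 10160 and 5265 CPM, with 3110 to 19527 CPM in immature adult and 1663 to 8873 CPM in mature adult. TpnC73F went the other way, at 9733 CPM (0 to 48706), 7523 CPM (0 to 22584) and 1527 CPM (988 to 7133), and Act57B was at 20286, 11611 and 4759 CPM.

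Summed over these barcodes, the log2 difference of immature adult over early pupa was largest among the 21 genes for Mf at 2.24 (2.14 to 2.35) and Zasp66 at 1.498 (1.36 to 1.63), while bt stood at -0.83 and the core genes Mhc (0.22), wupA (0.20) and up (0.03) were closer to 0. The sum and the median over barcodes differed in sign for 7 of the 21 genes in this comparison, among them Act57B, which had 0.54 in the sum and a lower median in immature adult than in early pupa. Between mature adult and early pupa, TpnC73F had -3.04 (-3.19 to -2.89), Act57B -1.34 and Act87E -1.33, while the other troponin C gene TpnC47D had 1.74 (1.62 to 1.87) and Mf 1.57. For sls the sum gave 1.60, but 3017 of its 3031 mature adult UMIs came from 2 barcodes and its median was lower, at 849 CPM in mature adult against 3506 CPM in early pupa. In all, the sum and the median differed in sign for 8 of the 21 genes here, but not for TpnC73F, Act57B, Act87E, TpnC47D and Mf. The paired troponin C genes thus lay on opposite sides of 0 in these mature adult barcodes. The mature adult sum rests on the 2 barcodes over a limit, which held 31705 of its 33332 muscle-restricted UMIs. Over all 93 early pupa barcodes Mlc2 had a median of 21107 CPM, against 38462 CPM in the 15 immature adult and 16511 CPM in the 7 mature adult barcodes, and the ranges overlapped.

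**Figure D3:**
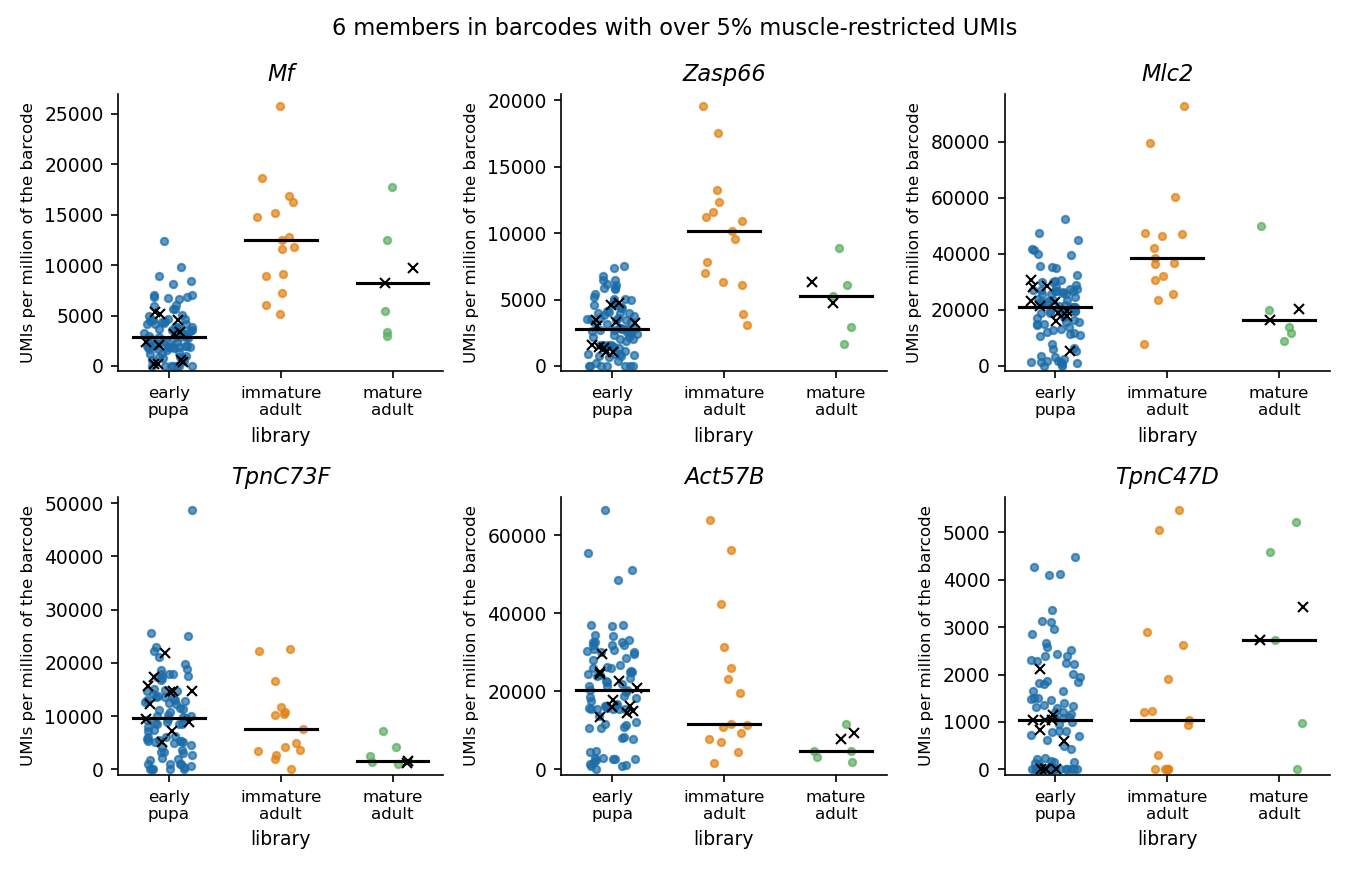
Level of 6 members (CPM of the barcode's own UMIs) in each barcode with over 5% muscle-restricted UMIs, for early pupa (93), immature adult (15) and mature adult (7), with crosses for barcodes over an upper limit and lines for medians. The medians of Mf and Zasp66 are higher and those of TpnC73F and Act57B lower in both adult libraries than in early pupa, with overlapping ranges, and the 6 genes were chosen after their values were seen.

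In early pupa, most Mlp60A UMIs of kept cells lay outside cluster 8, which held 35.6% of them there, 76.3% in immature adult and 92.0% in mature adult. In early pupa the gene was at 12656 CPM (12524 to 12790) in cluster 6, against 14953 CPM in cluster 8, 1723 CPM in cluster 3, 24.8 CPM in progenitor-like cells and 24.6 CPM in EC-like cells. Clusters 3 and 6 had 15 and 14 of 15 markers of the pupal cell type (PupC) raised. In early pupa those markers summed to 282211 CPM in cluster 3 and 164187 CPM in cluster 6, with 0 of 15 at 0 in either. The 10 leading genes of cluster 3 held 5 of those markers. As the 10 leading genes of cluster 6 held 0 of them and 1 hemocyte marker (Sr-CI), both clusters are given by number. Mlp60A was 98.5% of the 35439 muscle-restricted UMIs of cluster 6, against 12.9% in cluster 8 and 21.3% in barcodes of at most 1000 UMIs, and all other muscle-restricted genes together were at 194 CPM there. Of the 18 visceral muscle markers 8 were at 0 in cluster 6, and the list summed to 58.4 CPM, while hemocyte markers summed to 1555 CPM with 3 of 6 at 0.

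The same gene stood out in immature adult cluster 6, which had only 11 cells. Mlp60A was at 3329 CPM (2968 to 3723) there, 98.7% of 312 muscle-restricted UMIs, with 18 of 18 visceral muscle markers at 0. Mature adult had 0 cells in clusters 3 and 6, which allows a share of up to 0.152% of its kept cells. At 2000 UMIs a cell, Mlp60A was detected in 96.0% of 174 early pupa cells of cluster 6 and 68.1% of 282 cells of cluster 3, against 13.8% of 501 EC-like cells and 2.90% of 345 progenitor-like cells. Median depths before thinning were 6202 UMIs in cluster 6 and 15165 UMIs in progenitor-like cells, so the share was higher in the shallower cells.

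In early pupa sls was present in progenitor-like cells, named for the stem cell and enteroblast markers esg, klu and N. Its level there was 284 CPM (271 to 299) in early pupa, 3.48 CPM in immature adult and 0.716 CPM in mature adult (4 UMIs), against 8.80, 0.787 and 0.155 CPM in EC-like cells. It made up 63.1% of the muscle-restricted UMIs of early pupa progenitor-like cells, against 2.63% in cluster 8 and 9.85% in barcodes of at most 1000 UMIs. The thinned share of cells with an sls UMI was 32.8% of 345 progenitor-like cells in early pupa, 0.257% of 389 in immature adult and 0 of 231 in mature adult, which allows up to 1.30%. In early pupa EC-like cells this share was 4.59%. The antisense gene CR42860 overlaps sls exons, and its part in these counts was not tested.

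Enteroendocrine-like (EE-like) cells, the hormone-secreting cells of the gut, carried up. The level of up was 40.2 CPM in early pupa, 50.7 CPM in immature adult and 39.7 CPM in mature adult EE-like cells, against 8.68, 0 and 0.805 CPM in EC-like cells (the 0 in immature adult has an upper bound of 0.968 CPM). It was 12.3% of the muscle-restricted UMIs of EE-like cells in early pupa, 64.8% in immature adult and 61.6% in mature adult, against 7.47%, 5.75% and 6.06% in cluster 8. The 3 levels in EE-like cells had overlapping intervals, while the level of up over all kept cells was 132-fold lower in mature adult than in early pupa. The thinned shares of EE-like cells with an up UMI were 7.69% (4.04 to 13.1), 9.01% and 5%, against 5.19% (3.42 to 7.51), 0% (0 of 301 cells, which allows up to 0.997%) and 0.204% of EC-like cells, so the early pupa share did not stand apart from that of EC-like cells. bt rested on 59, 25 and 21 UMIs in EE-like cells, at 33.9, 6.44 and 15.7 CPM. In early pupa its 10.4% of their muscle-restricted UMIs was close to the 8.98% in barcodes of at most 1000 UMIs. In the adults this share was 8.22% and 24.4%, against 3.85% and 2.46% in those barcodes. Whether these bt counts were background was not tested.

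Strn-Mlck was spread over more groups than the other muscle-restricted genes. In early pupa it was at 406 CPM in cluster 11, 388 CPM in cluster 8, 82.7 CPM in EE-like, 39.5 CPM in progenitor-like and 6.06 CPM in EC-like cells. The muscle-rich early pupa barcodes, including those over an upper limit, had 506 CPM (478 to 536) of it. Strn-Mlck then made up 44.2% and 49.5% of the muscle-restricted UMIs of progenitor-like cells in immature and mature adult, on 87 and 47 UMIs. Mlp84B was 57.1% of the 70 muscle-restricted UMIs of immature adult EC-like cells, at 10.5 CPM, against 3.803 CPM in early pupa and 0.588 CPM in mature adult EC-like cells. Strn-Mlck exons overlap Cyp4aa1 and CR45021 on the other strand.

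**Figure D4:**
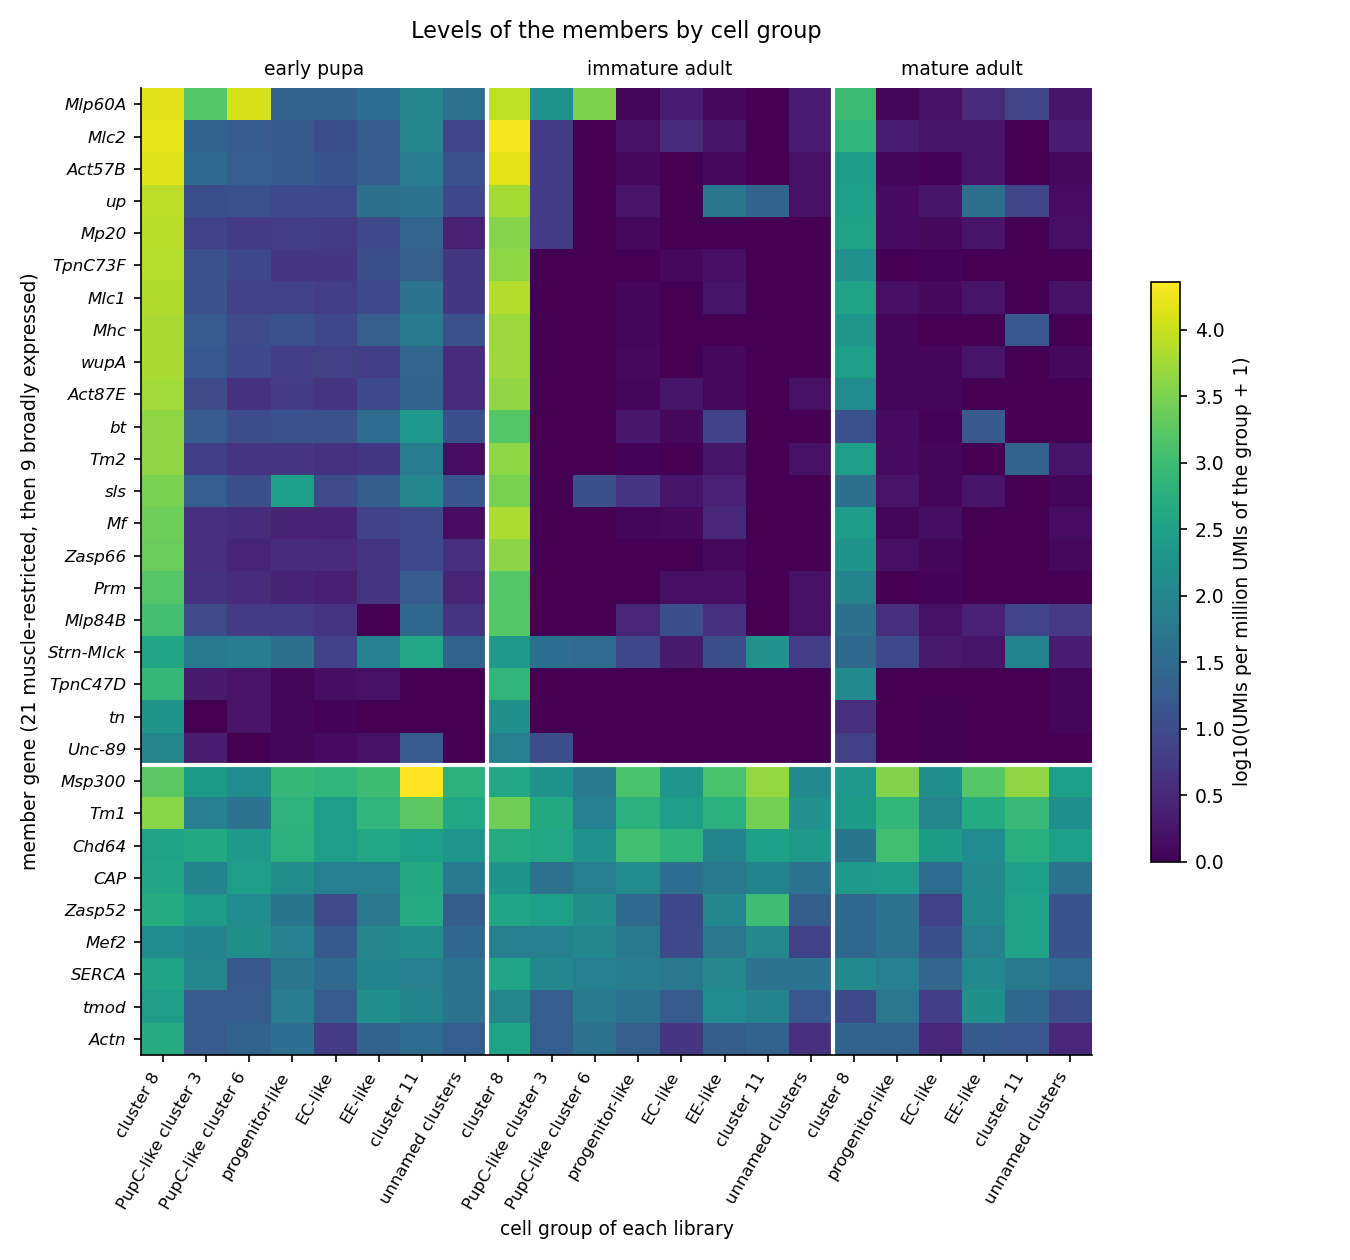
Level of each member (log10 of CPM + 1, as colour) in the cell groups of early pupa, immature adult and mature adult. Cluster 8 carries the 21 muscle-restricted genes, Mlp60A also stands out in cluster 6 (12656 CPM in early pupa), sls in early pupa progenitor-like cells (284 CPM) and Msp300 in cluster 11 (23113 CPM in early pupa).

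Most UMIs of the broadly expressed genes lay outside cluster 8. Progenitor-like cells held 22.1%, 70.3% and 51.4% of them in early pupa, immature adult and mature adult, and carried 20.9%, 54.5% and 11.7% of all UMIs. Cluster 8 held 19.6%, 1.11% and 0.509% of them, and carried 5.76%, 0.585% and 0.724% of all UMIs. The summed level in cluster 8 cells over 5% was 11173, 8429 and 5396 CPM, above progenitor-like cells in early pupa and immature adult. In progenitor-like cells the sum was 2538, 3384 and 5791 CPM, and in EC-like cells 1444, 1267 and 572 CPM. The sum was therefore higher at each later stage in progenitor-like cells and lower at each later stage in EC-like cells. In EE-like cells it was 2639, 2462 and 2923 CPM. EC-like cells came from different clusters at each stage, with 408 of 561 in cluster 2 in early pupa, 180 of 378 in cluster 5 in immature adult and 559 of 1283 in cluster 1 in mature adult, so that the EC-like values here and below compare different clusters across stages.

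Msp300 went in the same directions in both groups, but other genes had a part in the sums. Between immature and mature adult EC-like cells, Chd64 and Tm1 differed by more CPM than Msp300 did. In progenitor-like cells it was at 799 CPM (776 to 823) in early pupa, 1286 CPM (1266 to 1307) in immature adult and 3466 CPM (3417 to 3515) in mature adult, while EC-like cells had 733, 190 and 151 CPM and EE-like cells 1011, 1277 and 1694 CPM. The thinned share of progenitor-like cells with an Msp300 UMI was 69.3%, 88.7% and 98.7%, against 59.3%, 29.9% and 27.2% of EC-like cells. Cluster 11, 106 shallow cells led by CR43314, Prosap and CG34417 and left unnamed, had 23113, 4718 and 4386 CPM of Msp300. Cells of this cluster were few in the adult libraries, 6 and 13.

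Other broadly expressed genes had their own places. Chd64 was at 640, 1107 and 1083 CPM in progenitor-like cells, 283, 676 and 240 CPM in EC-like cells and 391, 88.1 and 130 CPM in EE-like cells, so in immature adult it was higher than in early pupa in progenitor-like and EC-like cells and lower in EE-like cells. Tm1 was level in progenitor-like cells, at 666, 641 and 761 CPM, and was at 273, 270 and 96.5 CPM in EC-like cells. EE-like cells held tmod at 152, 134 and 157 CPM, against 17.9, 17.1 and 5.51 CPM in EC-like cells. SERCA was likewise higher in EE-like cells, at 91.4, 113 and 119 CPM, against 31.7, 55.1 and 26.5 CPM in EC-like cells. Zasp52 reached 248 CPM in cluster 3 of early pupa and 124 CPM in mature adult EE-like cells, against 8.80 and 6.22 CPM in EC-like cells of those stages. Mef2 was at 147 CPM in early pupa cluster 6, above its 128 CPM in cluster 8, with overlapping intervals (133 to 162 and 111 to 147). As cluster 8 was mixed, its values are lower than those of muscle-rich cells for several of these genes. The 93 muscle-rich early pupa barcodes had 196 CPM (179 to 215) of Mef2. They also had 6080 CPM of Tm1, 820 of SERCA, 769 of Actn, 664 of Zasp52 and 306 of tmod, but only 10.3 CPM of Chd64. Actn, at 495, 340 and 23.2 CPM in cluster 8, was the broadly expressed gene with the largest share of early pupa UMIs there (60.97%).

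Barcodes of at most 1000 UMIs, which can hold free RNA and broken cells, contained these genes as well. The muscle-restricted sum in them was 9751 CPM (9487 to 10021) in early pupa, 1376 CPM (1276 to 1481) in immature adult and 158 CPM (143 to 174) in mature adult, against 8456, 658 and 44.7 CPM in kept cells. The order of the stages was thus the same in both classes of barcodes. The median log2 difference of these barcodes over kept cells was 0.14, 1.16 and 1.83 for the 21 genes, against -0.24, -0.79 and 0.32 over all genes with at least 100 UMIs. Of these small barcodes 37 in early pupa, 6 in immature adult and 0 in mature adult were themselves muscle-rich, and they held 61.2%, 84.3% and 0% of the muscle-restricted UMIs of this class, against 78.9%, 93.1% and 76.5% in the muscle-rich kept cells.

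Some giant genes were higher in these small barcodes of early pupa. Msp300 was at 4367 CPM, against 979 CPM in kept cells, sls at 961 against 245 CPM, bt at 876 against 271 CPM and Strn-Mlck at 159 against 60.98 CPM. By contrast, tmod, another long gene, was at 45.3 against 53.9 CPM, and Unc-89 was at 7.55 against 6.44 CPM on 4 UMIs of the small barcodes. Over the 30 members the log2 difference had a Spearman correlation with gene length of 0.46 in early pupa, -0.31 in immature adult and -0.20 in mature adult, a description across genes measured in the same libraries. Barcodes with a mitochondrial share of 25% or more had 2273, 55.3 and 35.8 CPM of the 21 genes, with 14, 0 and 0 muscle-rich barcodes.

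**Figure D5:**
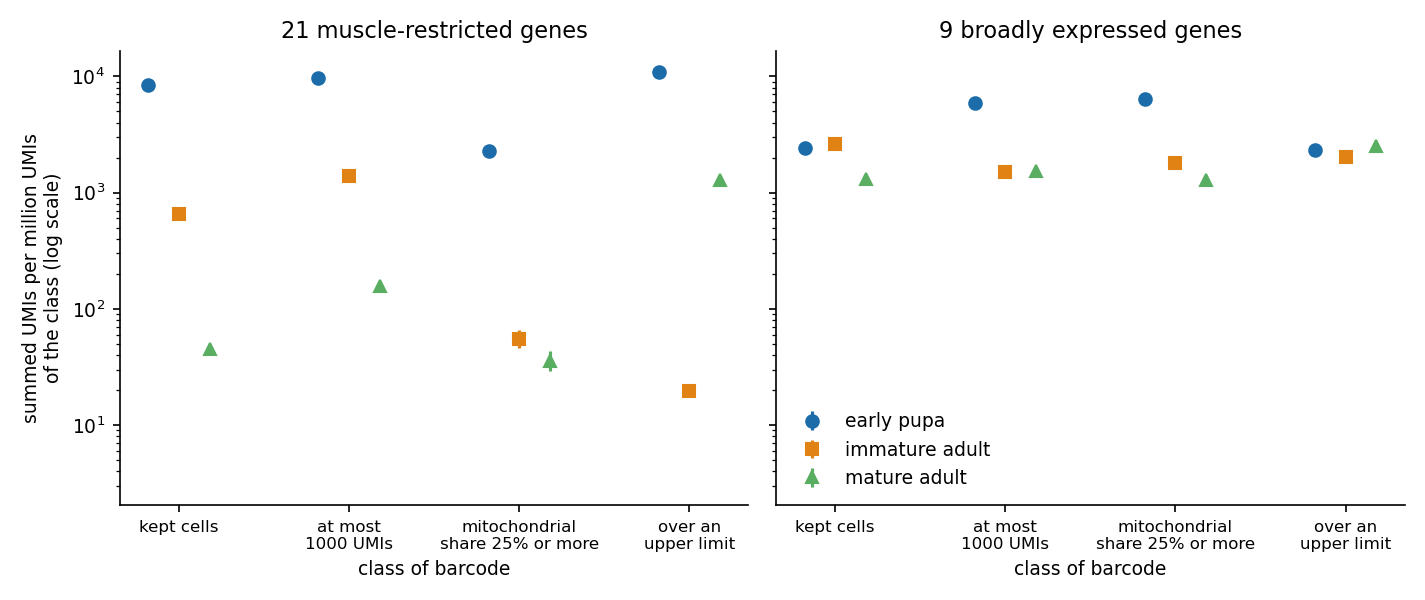
Summed level (CPM, log axis) of the 21 muscle-restricted and the 9 broadly expressed genes in 4 classes of barcodes of early pupa, immature adult and mature adult, with exact 95% Poisson intervals. The muscle-restricted sum steps down over the stages in kept cells and in barcodes of at most 1000 UMIs, whereas above the upper limits it is 10984, 19.7 and 1276 CPM.

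Other muscle genes that are not members were read from a list of 19. Of 13 with at least 100 UMIs over early pupa and immature adult, 11 were at least 2-fold lower in immature adult, against 16.2% of all genes. In mature adult 13 of 13 tested were at least 2-fold lower than in early pupa, against 46.6% of all genes. TpnC25D, another troponin C, was at 205.5 CPM in early pupa, 18.9 CPM in immature adult and 0.736 CPM in mature adult, and Hand, a transcription factor of visceral muscle and heart, at 36.4, 6.61 and 0.231 CPM. The other 2 in immature adult were Ca-alpha1D, a calcium channel subunit, at 33.0, 64.1 and 13.5 CPM, and Lmpt, a LIM-domain protein, at 219, 124 and 33.5 CPM. Argk, arginine kinase, was at 1179, 284 and 501 CPM, lower in both adults than in early pupa but higher in mature than in immature adult. Genes of the flight muscle were close to nothing: Act88F had 6, 0 and 1 UMIs, fln 1, 0 and 0, TpnC4 8, 1 and 1, and TpnC41C 4, 0 and 0. bap, which specifies the visceral mesoderm of the embryo, had 0 UMIs in all 3 libraries, which allows up to 0.111, 0.139 and 0.0630 CPM.

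Of 9 actomyosin genes used by all cells, 0 were at least 2-fold lower and 0 higher in immature adult than in early pupa, where 16.2% and 12.9% of all genes were, and the list's median log2 difference was 0.38, against 0.07 over all genes. For mature adult over early pupa 3 of the 9 were lower (Act42A, sqh and cher), against 46.6% of all genes, and for mature over immature adult 5 were, against 50.8%. Act5C, the cytoplasmic actin, was at 2210, 3691 and 2142 CPM, and zip, the nonmuscle myosin heavy chain, at 241, 478 and 192 CPM. Of 6 genes of muscle and epithelial attachment, if, the integrin alpha PS2 chain, was the 1 at least 2-fold lower in immature adult than in early pupa, at 10.95, 0.786 and 0.336 CPM, while mys, the beta chain, was at 138, 215 and 86.5 CPM. For mature adult over early pupa 4 of these 6 were lower, against 46.6% of all genes. For mature over immature adult 5 of 5 tested were, against 50.8%. Markers of other cell types differed as well: those of PupC summed to 60217, 6015 and 7876 CPM, of EC to 43657, 9363 and 212657 CPM, of EE to 2644, 27088 and 5433 CPM, of progenitors to 2773, 3931 and 1290 CPM, of trachea to 410, 3.14 and 1.53 CPM and of hemocytes to 283, 134 and 40.4 CPM, and their part in the member values was not tested.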

How the data were processed

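Unique molecular identifier (UMI) counts per gene and barcode were deposited by the authors for 3 libraries of 10x 3′-end RNA, without normalization. The submitters' processing notes name Cell Ranger 3.0.2. Whether intronic reads were counted is not given in the sources used here. The 30 members and all lists were chosen with earlier results of these data known, and every member is named.

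Kept cells passed the study's filter (mitochondrial share, from 38 mitochondrial genes, under 25%, over 200 and under 4000 genes, over 1000 and under 100000 UMIs). Their depth was 27026674, 21629263 and 47585248 UMIs in early pupa, immature adult and mature adult. CPM are sums over kept cells per 1000000 UMIs. Sums have exact Poisson intervals, ratios exact conditional intervals and shares exact binomial (Clopper-Pearson) intervals, at 95%. UMIs of 1 cell are not independent draws from the animals, so intervals cover counting error only. A count of 0 allows 3 counts. Differences of 2-fold were counted among genes with at least 100 UMIs over both libraries. No test was made, since each stage has 1 library. Cells were thinned to 2000 UMIs by drawing without replacement.

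Clusters came from Seurat 5.3.0 in R 4.3.3 (Matrix 1.6.5) with reciprocal PCA integration, 14 components and resolution 0.5 on 1965 of 2000 selected variable features, the members (25 were selected) and other muscle genes being left out. A marker was called raised at a log2 difference above 0.5, with 20 CPM added, and in over 10% of cells. The markers were listed beforehand and this way of naming was fixed later, with the values known. Rebuilt names can differ from those of the study. No doublet caller was run, and an alternative left out the 260 cells with most UMIs. The listed Argk1 is Argk in the tables. Exon overlaps and coordinates came from the release 6 annotation. Python 3.11.15, numpy 2.4.6, scipy 1.17.1, pandas 2.3.3 and matplotlib 3.10.9 were used, and the code was tested on simulated data. Alternatives changed the filter, the weighting of cells, the denominator, the fold and the clustering. 3 alternatives were added after seeing the data.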

Additional observations from a re-analysis of the deposited data

Results flagged for a closer look

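Barcodes over an upper limit of the filter (4000 genes or 100000 UMIs) are left out of the kept cells on which the levels by stage rest, and the 21 muscle-restricted genes were counted in them well above the level that 3 UMIs allow. Their sum was 10984 CPM in 163 early pupa barcodes, 19.7 CPM in 206 immature adult barcodes and 1276 CPM in 205 mature adult barcodes. These are values of single libraries, with no control samples to compare them with.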

How the results depend on the processing

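No paired analysis was possible because each stage has 1 library with replicate number 1, and for the same reason leaving out a replicate was not done. Ratios below are log2, for immature adult over early pupa, mature adult over early pupa and mature over immature adult in this order.

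The muscle-restricted sum gave -3.68, -7.56 and -3.88 in kept cells. With no upper limits on genes or UMIs it gave -4.96, -4.34 and 0.62, the last reversed, and without the muscle-rich barcodes outside the limits -4.10, -7.31 and -3.21. A mitochondrial share below 10% gave -4.40, -7.92 and -3.52, more than 2000 UMIs -3.91, -8.11 and -4.21, each cell weighed equally -1.78, -4.71 and -2.93, and a denominator without 79 abundant genes -3.81, -7.09 and -3.28. Without cluster 8 it gave -5.41, -7.50 and -2.09, without cells of over 5% muscle-restricted UMIs -5.35, -7.46 and -2.11, and without Mlp60A -3.36, -7.35 and -3.99. Without the 5% of cells with most UMIs, the ratios over early pupa were -3.51 and -7.41, and with no mitochondrial filter the mature adult ratios were -7.47 and -3.78. Except for the reversed value, the sum stayed lower at the later stage under each of these alternatives.

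The broadly expressed sum gave 0.13, -0.86 and -0.99 in kept cells, -0.12, -1.08 and -0.97 with no mitochondrial filter, 0.23, -0.80 and -1.03 with a share below 10%, -0.047, -0.44 and -0.40 with no upper limits, -0.72, -1.08 and -0.36 with each cell weighed equally, -0.00106, -0.39 and -0.39 without the abundant genes and 0.050, -0.83 and -0.88 without the deepest 5% of cells. More than 2000 UMIs gave 0.19 and -0.81 over early pupa, and leaving out cluster 8 gave 0.35 and -0.63. Its direction for immature adult over early pupa therefore turned in 4 of these settings.

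For single members, mature over immature adult turned positive with no upper limits for 18 muscle-restricted genes: Mhc 1.11, Mlc1 0.52, Mlc2 0.19, Mlp60A 0.42, Mlp84B 0.10, TpnC47D 2.39, Tm2 0.81, Act87E 0.067, Prm 1.69, Mp20 1.10, up 0.65, wupA 0.89, bt 2.61, sls 2.22, Zasp66 0.79, Unc-89 1.42, tn 2.10 and Mf 0.70. The ratio of the broadly expressed Msp300 turned slightly positive as well. Without cluster 8, mature over immature adult turned positive for Mlc1 (0.79), Tm2 (0.71), Mp20 (0.86), wupA (0.19) and Zasp66 (2.45). Mf gave 0.18 for immature adult over early pupa with each cell weighed equally. The cause was not tested.

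The count of members at least 2-fold higher in immature adult than in early pupa was 1, and 0 with each cell weighed equally, without the abundant genes, without the deepest cells or at a 3-fold threshold. With no upper limits 7 members were higher and 1 was lower in mature than in immature adult, against 0 and 26. Cells of the muscle-led cluster held 67.6% of the mature adult muscle-restricted UMIs when the libraries were merged without integration, against 76.8%. Barcodes of at most 500 UMIs numbered 2 in early pupa, 3 in immature adult and 0 in mature adult, so a value from them was not formed for mature adult. Of 1051 alternative values over all results, 454 stayed within the spread of the counts, 572 moved beyond it and 25 were counted as reversed. The 25 do not hold every change of sign. Those of the broadly expressed sum for immature adult over early pupa were counted among the 572. The restricted genes of mature adult rest on 2128 UMIs, most of them from 5 cells, which limits every value by cell group there.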
